A study of Mus musculus with 10 samples.

Results

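Collagens, laminins, integrins and a few of their partners form the matrix and adhesion genes described here in E14 mouse embryonic stem cells. The genes were chosen by symbol from the deposited table: the collagen chains (Col), the laminin alpha, beta and gamma chains (Lama, Lamb, Lamc), the integrin alpha and beta subunits (Itga, Itgb), the matrix proteins Fn1, Sparc, Nid1, Nid2 and Hspg2, and the collagen-folding proteins Serpinh1, P4ha1 and P4ha2. The choice gave 91 of 55401 genes: 44 collagens, 11 laminins, 27 integrins, 5 other matrix proteins, 3 folding proteins and Itgbl1, which matches by its symbol but encodes no integrin subunit. Poly(A) RNA was sequenced from E14 cells that were wild type (4 libraries in 2 numbered sets) and from E14 cells with the ANKRD11 Y347A mutation, made by CRISPR/Cas9 (6 libraries in 3 numbered sets). ANKRD11 is a nuclear regulator of transcription, and the comparison sets the RNA of mutant cells against that of wild-type cells. Wild-type libraries are labelled as untreated. The labels state neither how many edited clones were used nor what a set is, so the p-values rest on differences between sets that may be technical.

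The extracellular matrix of early embryonic cells is a basement membrane, a sheet in which laminin trimers (an alpha, a beta and a gamma chain) and a collagen IV network are bridged by nidogens and perlecan. Cells hold on to it through integrins, heterodimers of an alpha and a beta subunit that link laminin or fibronectin outside to actin adaptors inside. Collagen chains are hydroxylated and folded in the endoplasmic reticulum before secretion, by prolyl 4-hydroxylases among others, with the collagen chaperone Serpinh1 (HSP47) binding the folded triple helix.

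The unit is TPM (transcripts in every 1000000, scaled for transcript length and library total), so levels of different genes can be set side by side, but sequencing depth and counting error are unknown. A mean is given with its SD over the means of the sets (n = 2 in wild type, n = 3 in the mutant). Fold changes are given as log2 values of TPM + 1, mutant minus wild type, with their SE, and are too small for genes of low level. A gene was tested where its mean over the 10 libraries was at least 1 TPM, and was called where limma on set means gave a Benjamini-Hochberg adjusted p under 0.05 over all 12797 genes tested. In bulk RNA, fewer cells of a type and less RNA per cell cannot be told apart. All 11 stem cell markers examined passed the filter, with a summed level of 11205 to 11903 TPM in wild-type and 10054 to 11875 TPM in mutant libraries, so the libraries hold the markers of their label. Of these, Tdgf1 and Esrrb were called higher and Nanog and Zfp42 lower.

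Of the 91 genes, 37 passed the filter and 54 did not. Of the latter, 27 never reached 0.1 TPM and 5 (Itga2, Itgb2l, Itgbl1, Col8a1 and Col28a1) were listed at 0 in every library. Among the 37, the genes Col4a2, Col13a1, Itga9, Col7a1 and Col11a1 had a mean under 1 TPM in 1 genotype. The tested genes changed in both directions: 16 of 37 were called, 6 higher and 10 lower in the mutant. The split depended on the scaling, with 9 members called higher and 9 lower after rescaling by median of ratios, and 9 and 8 after quantile normalization. All genes then split 1095 to 1096 and 1073 to 1039. Without rescaling, the 16 of 37 are 43.2% called, 16.2% higher and 27.0% lower, where over all tested genes 17.5% were called, 6.97% higher and 10.5% lower. The median log2 fold change was -0.02 over the 37 genes and -0.04 over all tested genes. Only Col9a3 changed by 1 or more on the log2(TPM + 1) scale, which shrinks changes at low level. As ratios of mean TPM, mutant over wild type, Col9a3 was at 3.14, Col4a1 at 2.41 and Col4a2 (not called) at 2.03. Col9a2 was at 0.468, Itgal at 0.462 and Col11a1 at 0.413. The TPM ranges of the genotypes did not overlap for 20 of the 37 genes (54.1%, with the mutant above in 7 and below in 13), against 31.8% of all tested genes. Among 10 tested collagens 2 rose and 2 fell, among 6 laminins 2 rose and 2 fell, among 13 integrins 0 rose and 4 fell, among the 5 other matrix proteins 0 rose and 2 fell, and among the 3 folding proteins 2 rose and 0 fell. The design has only 2 wild-type sets, and without either of them the lone wild-type set is assumed to vary as the mutant sets do. Without wild-type set 1 the 16 genes had limma adjusted p between 0.0649 and 0.189, without wild-type set 2 between 0.0705 and 0.244, and 0 of 16 remained called in either case. Their log2 fold changes were then 0.861 to 1.21 times and 0.788 to 1.14 times the values from all sets, and calls over all genes fell to 83 higher and 113 lower and to 10 higher and 32 lower. Without mutant set 1 or mutant set 3, 4 of 16 remained called, and without mutant set 2, 14 of 16.

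**Figure D1:**
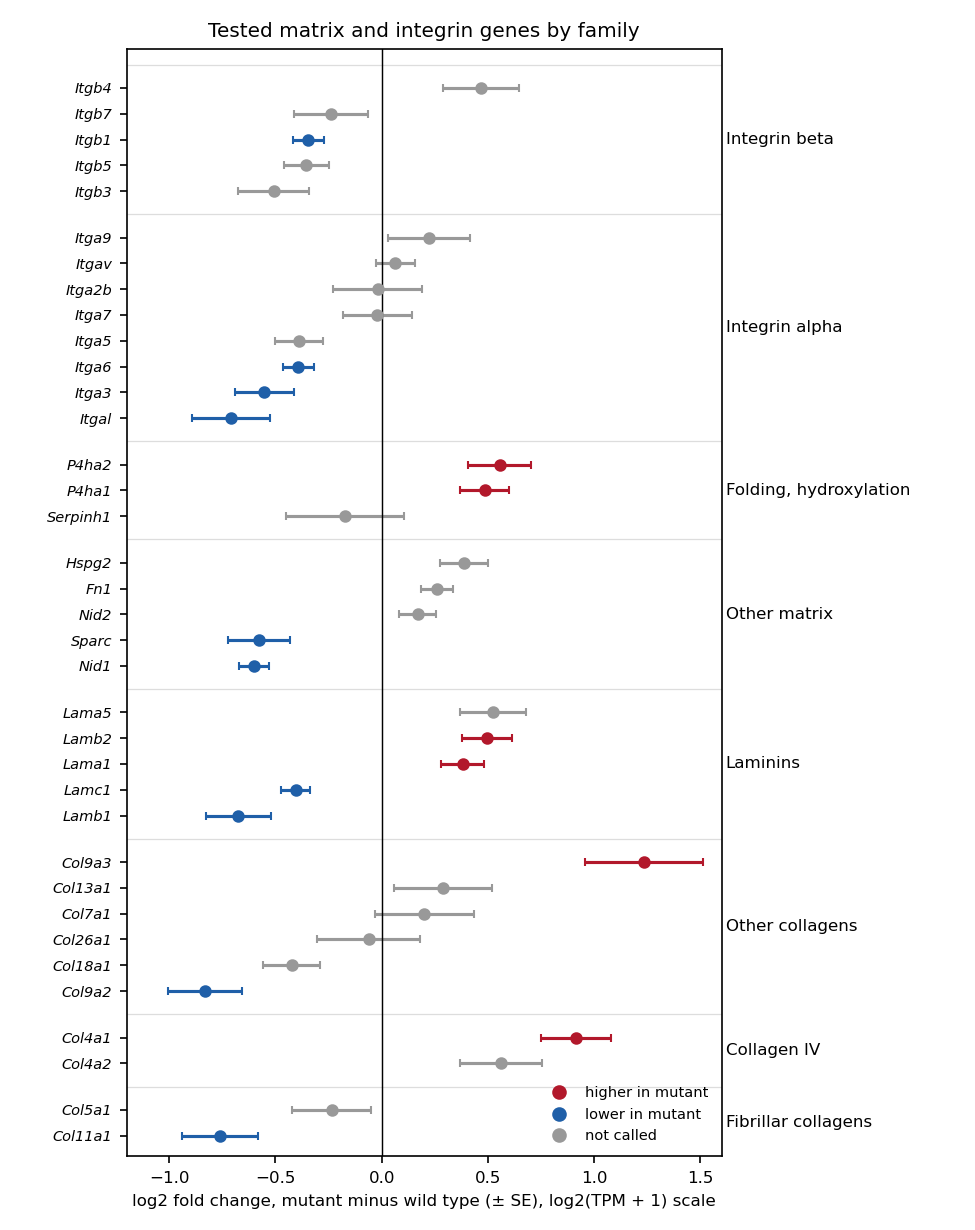
Log2 fold change, mutant minus wild type, with its SE, on the log2(TPM + 1) scale, for 36 of the 37 tested genes in their groups, from limma on 2 wild-type and 3 mutant set means. Colours mark the 6 genes called higher and the 10 called lower, and the tested integrins lie mostly left of 0 while the called laminins lie on both sides.

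Laminin chains moved apart from each other: the alpha1 and beta2 chains rose while the beta1 and gamma1 chains fell. Lamc1, the gamma chain shared by most laminins (mm10 chromosome 1, 153218922 to 153332786), was at 158.05, 152.75, 158.50 and 164.75 TPM in the wild-type libraries and at 118.82, 108.69, 122.76, 120.75, 125.17 and 120.83 TPM in the mutant libraries. Every mutant library was thus below every wild-type library, and the gene fell by 0.41 ± 0.07 on the log2 scale (limma adjusted p = 0.0146). Lamb1, the beta chain of laminin-111 (chromosome 12, 31265234 to 31329644), was at 3.48, 3.77, 3.94 and 4.63 TPM in wild-type libraries and at 2.21, 2.34, 1.83, 1.75, 2.45 and 2.03 TPM in mutant libraries. This chain, a low transcript beside Lamc1, was lower without overlap and fell by 0.68 ± 0.15 on the log2 scale (limma adjusted p = 0.029).

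Lamb2, the beta chain of laminins typical of mature basement membranes (chromosome 9, 108479736 to 108490530), was at 19.79, 14.83, 15.43 and 14.45 TPM in wild-type libraries and at 27.77, 17.54, 19.27, 23.47, 25.87 and 25.78 TPM in mutant libraries. The groups overlapped, since the first library of wild-type set 1 was above the lowest mutant libraries. Its set means rose from 16.1 ± 1.68 to 23.3 ± 2.29 TPM (0.50 ± 0.12, limma adjusted p = 0.032). The call was lost without the first library of mutant set 1 (adjusted p = 0.156), the second of mutant set 2 (adjusted p = 0.0704) or the second of wild-type set 1 (adjusted p = 0.101). It was also lost when the 10 libraries were fitted singly and sets entered as a random block (adjusted p = 0.102). Lama1, the alpha chain of laminin-111 that the early embryo relies on (chromosome 17, 67697259 to 67822647), was at 30.45, 27.78, 28.99 and 24.64 TPM in wild-type libraries and at 37.10, 32.19, 32.22, 38.16, 42.93 and 38.23 TPM in mutant libraries. No mutant library reached down to the wild-type values. Lama1 rose by 0.38 ± 0.10 on the log2 scale (limma adjusted p = 0.042). This call was lost, with adjusted p of 0.0587 to 0.093, without the first library of mutant set 1 or the second library of mutant set 2, mutant set 3, wild-type set 1 or wild-type set 2. Lama5, the alpha chain of laminin-511, a common substrate for stem cells, was at 36.6 TPM in wild type and 52.8 TPM in the mutant (0.53, limma adjusted p = 0.0596, not called). Summed over chains, the laminin alpha level was 57.48 to 72.47 TPM in wild-type and 74.87 to 104.19 TPM in mutant libraries. The 5 other laminin chains did not pass the filter, the highest being Lama3 at a mean of 0.435 TPM, with Lamb3 at 0.053 and Lamc3 at 0.022 TPM.

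Among the proteins that join or surround these networks, nidogen-1 and SPARC fell. Nid1, which links the laminin gamma1 chain to collagen IV (chromosome 13, 13437551 to 13512269), was at 114.01, 113.69, 106.27 and 107.41 TPM in wild-type libraries and at 78.43, 65.69, 70.52, 70.23, 74.89 and 75.02 TPM in mutant libraries. The groups were far apart. Nid1 fell by 0.60 ± 0.07 on the log2 scale (limma adjusted p = 0.0064), the smallest adjusted p of the 37 tested genes. Its paralogue Nid2 was at 151 TPM in wild type and 170 TPM in the mutant and was not called (0.17, limma adjusted p = 0.215). Sparc, a collagen-binding matricellular protein abundant in parietal endoderm (chromosome 11, 55394500 to 55423183), was at 81.30, 83.54, 91.86 and 84.98 TPM in wild-type libraries and at 66.45, 61.48, 60.77, 64.31, 47.47 and 44.24 TPM in mutant libraries. The mutant libraries were all lower, with set 3 lowest. Sparc fell by 0.58 ± 0.15 on the log2 scale (limma adjusted p = 0.039). The call was lost under median-of-ratios rescaling (adjusted p = 0.0663), quantile normalization (adjusted p = 0.08) and the correction for GC content (adjusted p = 0.0504). It was also lost without the second library of mutant set 1 (adjusted p = 0.0569), the first of mutant set 2 (adjusted p = 0.0528) or the first of mutant set 3 (adjusted p = 0.0522). Fn1, fibronectin, was the most abundant of the 91 transcripts at 412 ± 25.0 TPM in wild type and 495 ± 29.5 TPM in the mutant. Its mutant libraries (448.40 to 558.43 TPM) lay above the wild-type libraries (393.87 to 433.02 TPM), yet it was not called (0.26, limma adjusted p = 0.0575). Hspg2, perlecan, the large heparan sulphate proteoglycan of basement membranes, was at 64.9 TPM in wild type and 85.5 TPM in the mutant and was not called (0.39, limma adjusted p = 0.0568).

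Collagen IV, the network collagen of basement membranes, rose in its alpha1 chain at low levels. Col4a1 (chromosome 8, 11198423 to 11312826, minus strand) was at 1.99, 1.79, 1.28 and 1.88 TPM in the wild-type libraries and at 5.0, 3.93, 4.86, 4.42, 2.95 and 3.92 TPM in the mutant libraries. All mutant libraries were higher (0.92 ± 0.16, limma adjusted p = 0.0165). Col4a2 (chromosome 8, 11312805 to 11449287, plus strand), the partner chain in the same trimer, was at 0.70 to 1.09 TPM in wild-type libraries and 1.29 to 2.33 TPM in mutant libraries, again without overlap, and was not called (0.56, limma adjusted p = 0.0867). The pair is transcribed from a shared region in opposite directions. RefSeq (GRCm38.p6) puts the start of Col4a1 at 11312826 and that of Col4a2 at 11312805, so that their first 22 bases overlap, and reads there cannot be assigned without strand information, and whether strand was used is not given here. The other 4 collagen IV chains did not pass the filter, Col4a5 being highest at a mean of 0.074 TPM.

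Primitive and parietal endoderm, a cell type that can arise in stem cell cultures and makes collagen IV and laminin-111, was looked at beside these results. Of its 16 markers 1 passed the filter, Hnf4a, at 0.735 TPM in wild type and 1.5 TPM in the mutant (limma adjusted p = 0.1375, not called). The summed level of the list was 1.62 to 2.69 TPM in wild-type and 3.5 to 6.1 TPM in mutant libraries, without overlap, and the highest values in any library were 0.45 TPM for Gata4, 0.85 TPM for Gata6, 0.20 TPM for Sox17 and 0.02 TPM for Cubn. Below the filter, and named after their values were seen, Amn was at 0.08 to 0.22 TPM in wild-type and 0.73 to 1.45 TPM in mutant libraries, and Pth1r at 0.07 to 0.17 and 0.25 to 0.95 TPM. Both were higher in every mutant library, but they were picked from the list, and most of its markers are not given by genotype. The sum therefore does not show that the list moved as a whole. Of the called matrix genes above, Col4a1, Lama1 and Lamb2 rose in the mutant, while Lamb1, Lamc1, Nid1 and Sparc fell. The part of such cells in these changes was not tested. Fibroblast feeder markers summed to 5.04 to 7.92 TPM in wild-type and 5.46 to 6.72 TPM in mutant libraries, with 5 of 11 listed at 0 in every library. Trophoblast markers summed to 14.66 to 21.54 and 19.68 to 29.63 TPM, with 0 of 3 tested called, and the single endothelial marker tested, Pecam1, which stem cells also express, fell from 66.1 to 47.0 TPM (limma adjusted p = 0.021).

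The tested collagen IX chains changed in opposite directions. The other chain of collagen IX, Col9a1, did not pass the filter, with at most 0.04 TPM in any library. Col9a3 (chromosome 2, 180597790 to 180622189), a chain of this collagen that decorates cartilage fibrils, was at 1.83, 2.79, 1.44 and 1.73 TPM in wild-type libraries and at 6.80, 6.32, 4.38, 3.10, 7.53 and 8.55 TPM in mutant libraries. Every mutant library was higher, set 2 least. The set means rose 3.14-fold, from 1.95 ± 0.513 to 6.11 ± 2.18 TPM (1.23 ± 0.28, limma adjusted p = 0.029), a call lost without the first library of mutant set 2 (adjusted p = 0.0601). Col9a2 (chromosome 4, 121039385 to 121055322), a partner chain of the same trimer, was at 4.44, 3.79, 4.34 and 4.17 TPM in wild-type libraries and at 1.85, 3.23, 1.65, 1.51, 1.57 and 1.94 TPM in mutant libraries. It fell by 0.83 ± 0.17 on the log2 scale (limma adjusted p = 0.023), with the second library of mutant set 1 nearest to the wild type and the call lost without the first library of that set (adjusted p = 0.0829). Col11a1, a fibrillar chain found with collagen IX in cartilage (chromosome 3, 114030540 to 114220718), was at 2.33, 2.54, 2.22 and 1.98 TPM in wild-type libraries and at 0.67, 0.76, 1.42, 0.96, 0.85 and 0.96 TPM in mutant libraries. The genotypes did not overlap, and it fell by 0.76 on the log2 scale (limma adjusted p = 0.033), a call lost without the second library of mutant set 2 (adjusted p = 0.0603). Its mean was 2.27 TPM in wild type and 0.937 TPM in the mutant, so it passed the filter of 1 TPM through its wild-type libraries.

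Col18a1, a basement membrane collagen whose end fragment is endostatin, was the most abundant collagen, at 37.9 TPM in wild type and 28.1 TPM in the mutant, and was not called (-0.42, limma adjusted p = 0.0707). Col5a1 (-0.24), Col13a1 (0.29), Col7a1 (0.20) and Col26a1 (-0.06) were not called either. The remaining 34 collagens did not pass the filter, and of these Col22a1 and Col2a1 reached 1 TPM in a library, with highest values of 1.66 and 1.23 TPM. The highest means among the others of each family were 0.576 TPM for Col20a1, 0.281 TPM for the transmembrane Col17a1, 0.052 TPM for Col15a1, a relative of Col18a1, and 0.023 TPM for the network collagens Col10a1 and Col8a2. All 6 chains of collagen VI were below the filter, the highest being Col6a4 at a mean of 0.057 TPM.

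Folding proteins of collagen were higher for the prolyl 4-hydroxylase alpha subunits and not for the chaperone. The alpha subunits carry the catalytic site that hydroxylates prolines in collagen, and both genes are textbook targets of hypoxia-inducible factors, whose response element has ACGTG as its core, with GCGTG as a common variant. The 250 bases before the RefSeq start of the 3 genes (GRCm38.p6) are therefore shown, 5′ to 3′ on the strand of the gene, with capitals marking ACGTG, the variant GCGTG, and the reverse complement of either. The windows are chr10:59323046-59323295 (plus strand) for P4ha1, chr11:54100674-54100923 (plus) for P4ha2 and chr7:99353240-99353489 (minus) for Serpinh1, and none overlaps an annotated exon of its gene. The window of P4ha2 lies inside the gene as GENCODE places it, from 54100095 on.
P4ha1: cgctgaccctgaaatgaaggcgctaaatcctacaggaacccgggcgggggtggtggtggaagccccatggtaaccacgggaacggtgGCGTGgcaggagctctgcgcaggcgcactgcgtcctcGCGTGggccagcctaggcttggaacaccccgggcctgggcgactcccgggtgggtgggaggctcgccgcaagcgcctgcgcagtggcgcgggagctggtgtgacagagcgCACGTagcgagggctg
P4ha2: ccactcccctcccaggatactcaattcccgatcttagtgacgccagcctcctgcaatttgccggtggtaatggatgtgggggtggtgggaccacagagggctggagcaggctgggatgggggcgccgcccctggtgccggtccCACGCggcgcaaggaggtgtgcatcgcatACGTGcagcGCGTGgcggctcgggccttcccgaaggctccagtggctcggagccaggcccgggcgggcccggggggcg
Serpinh1: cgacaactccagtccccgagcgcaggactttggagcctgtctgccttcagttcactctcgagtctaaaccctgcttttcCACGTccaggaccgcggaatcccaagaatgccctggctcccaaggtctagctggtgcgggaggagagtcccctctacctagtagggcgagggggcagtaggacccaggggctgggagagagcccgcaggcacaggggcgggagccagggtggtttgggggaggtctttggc

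The windows of P4ha1 and P4ha2 each hold 1 match to ACGTG and 2 to GCGTG, and that of Serpinh1 holds 1 to ACGTG and 0 to GCGTG, both strands counted. Such matches are common: ACGTG stood in 16.6%, GCGTG in 28.2% and either in 38.6% of 32851 RefSeq windows of this length. They are letters in a window and not measured binding sites.

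P4ha1 (chromosome 10, 59323296 to 59373304) was at 28.00, 28.32, 27.43 and 28.65 TPM in wild-type libraries and at 43.50, 42.79, 33.55, 34.99, 42.00 and 42.85 TPM in mutant libraries. The wild-type libraries were close together and all mutant libraries lay above them, set 2 lowest, with a rise of 0.49 ± 0.11 on the log2 scale (limma adjusted p = 0.033; 0.0575 with no mean-variance trend). P4ha2 (chromosome 11, 54100095 to 54131665) was at 9.89, 12.05, 12.03 and 9.07 TPM in wild-type libraries and at 19.01, 18.83, 13.60, 12.96, 14.34 and 19.74 TPM in mutant libraries. It too was higher in every mutant library and rose by 0.56 ± 0.15 on the log2 scale (limma adjusted p = 0.045), close to the threshold: leaving out any mutant library other than the second of set 2, or the first of wild-type set 1 or the second of set 2, gave an adjusted p of 0.0527 to 0.0874. Serpinh1 (chromosome 7, 99345376 to 99353239) was at 8.13 ± 2.93 TPM in wild type and 7.09 ± 2.12 TPM in the mutant and was not called (-0.17, limma adjusted p = 0.688).

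Integrins were lower where they changed. Of the 13 tested subunits 10 had a negative log2 fold change, 2 of them (Itga7 and Itga2b, both -0.02) so near 0 that their sign flipped under median-of-ratios rescaling. The median was -0.34, and 7 subunits had every mutant library below every wild-type library. These are 53.8% of the 13, where 31.8% of all tested genes had no overlap in either direction. Of the 13, 30.8% were called lower, against 10.5% of all tested genes. Itgb1, the beta subunit shared by most laminin, collagen and fibronectin receptors (chromosome 8, 128685654 to 128733200), was at 58.95, 59.03, 57.66 and 56.01 TPM in wild-type libraries and at 46.55, 45.08, 46.70, 45.42, 44.07 and 44.56 TPM in mutant libraries. The libraries of each genotype were close together and the groups did not meet. Itgb1 fell by 0.34 ± 0.07 on the log2 scale (limma adjusted p = 0.0233), although with the correction for GC content the adjusted p was 0.0674. Itga6, the alpha subunit of the main laminin receptors of stem cells (chromosome 2, 71745616 to 71858416), was at 65.48, 67.54, 66.47 and 65.67 TPM in wild-type libraries and at 55.26, 49.60, 47.04, 50.01, 48.80 and 51.44 TPM in mutant libraries. It was lower in every mutant library, the first library of set 1 least, and fell by 0.39 ± 0.07 on the log2 scale (limma adjusted p = 0.018).

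Itga3, the alpha subunit of another laminin receptor (chromosome 11, 95044474 to 95076801), was at 5.02, 6.12, 7.76 and 5.77 TPM in wild-type libraries and at 3.93, 3.96, 3.37, 3.56, 4.10 and 4.19 TPM in mutant libraries. All mutant values were lower and it fell by 0.55 ± 0.14 on the log2 scale (limma adjusted p = 0.038). Itgal, the alpha subunit of the leukocyte receptor LFA-1 (chromosome 7, 127296260 to 127335138), was at 2.53, 3.01, 2.39 and 2.18 TPM in wild-type libraries and at 0.93, 0.98, 1.64, 1.40, 1.12 and 0.93 TPM in mutant libraries. Again no mutant library reached the wild-type range, and Itgal fell by 0.71 ± 0.18 on the log2 scale (limma adjusted p = 0.042), while its usual partner subunit Itgb2 did not pass the filter, at a mean of 0.059 TPM. Leaving out, in turn, the first library of mutant set 1, the second of wild-type set 1 and the first of wild-type set 2 gave adjusted p of 0.0526, 0.0746 and 0.0538 for Itga3 and 0.0537, 0.0516 and 0.051 for Itgal. Itgal was also not called without the second library of mutant set 2 (adjusted p = 0.0612) or under quantile normalization (adjusted p = 0.0557).

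The alpha5, alphaV, beta3 and beta5 subunits, found in fibronectin and vitronectin receptors, were not called. Itga5, the alpha subunit of the classical fibronectin receptor, was at 15.6 TPM in wild type and 11.6 TPM in the mutant (-0.39, limma adjusted p = 0.0582). Itgb5 was at 23.2 and 17.9 TPM (-0.35, limma adjusted p = 0.0595) and Itgb3 at 2.09 and 1.18 TPM (-0.51, limma adjusted p = 0.078), each without overlap of the libraries. With the correction for GC content Itga5 and Itgb5 passed the threshold. Itgav, the shared alpha partner of Itgb3 and Itgb5, had a log2 fold change of 0.06, Itgb7 of -0.24 and Itga9 of 0.22, none of them called. Itgb4, the hemidesmosomal partner of Itga6, was not called either, at 3.18 and 4.83 TPM (0.47, limma adjusted p = 0.114). Summed over subunits, the integrin alpha level was 109.46 to 113.82 TPM in wild-type and 85.75 to 94.83 TPM in mutant libraries, and the integrin beta level 89.32 to 93.07 and 71.61 to 76.02 TPM, in both cases without overlap. Of the 14 untested subunits, only Itgae, the alpha subunit of an intraepithelial lymphocyte receptor, reached 1 TPM in a library (1.15 TPM).

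**Figure D2:**
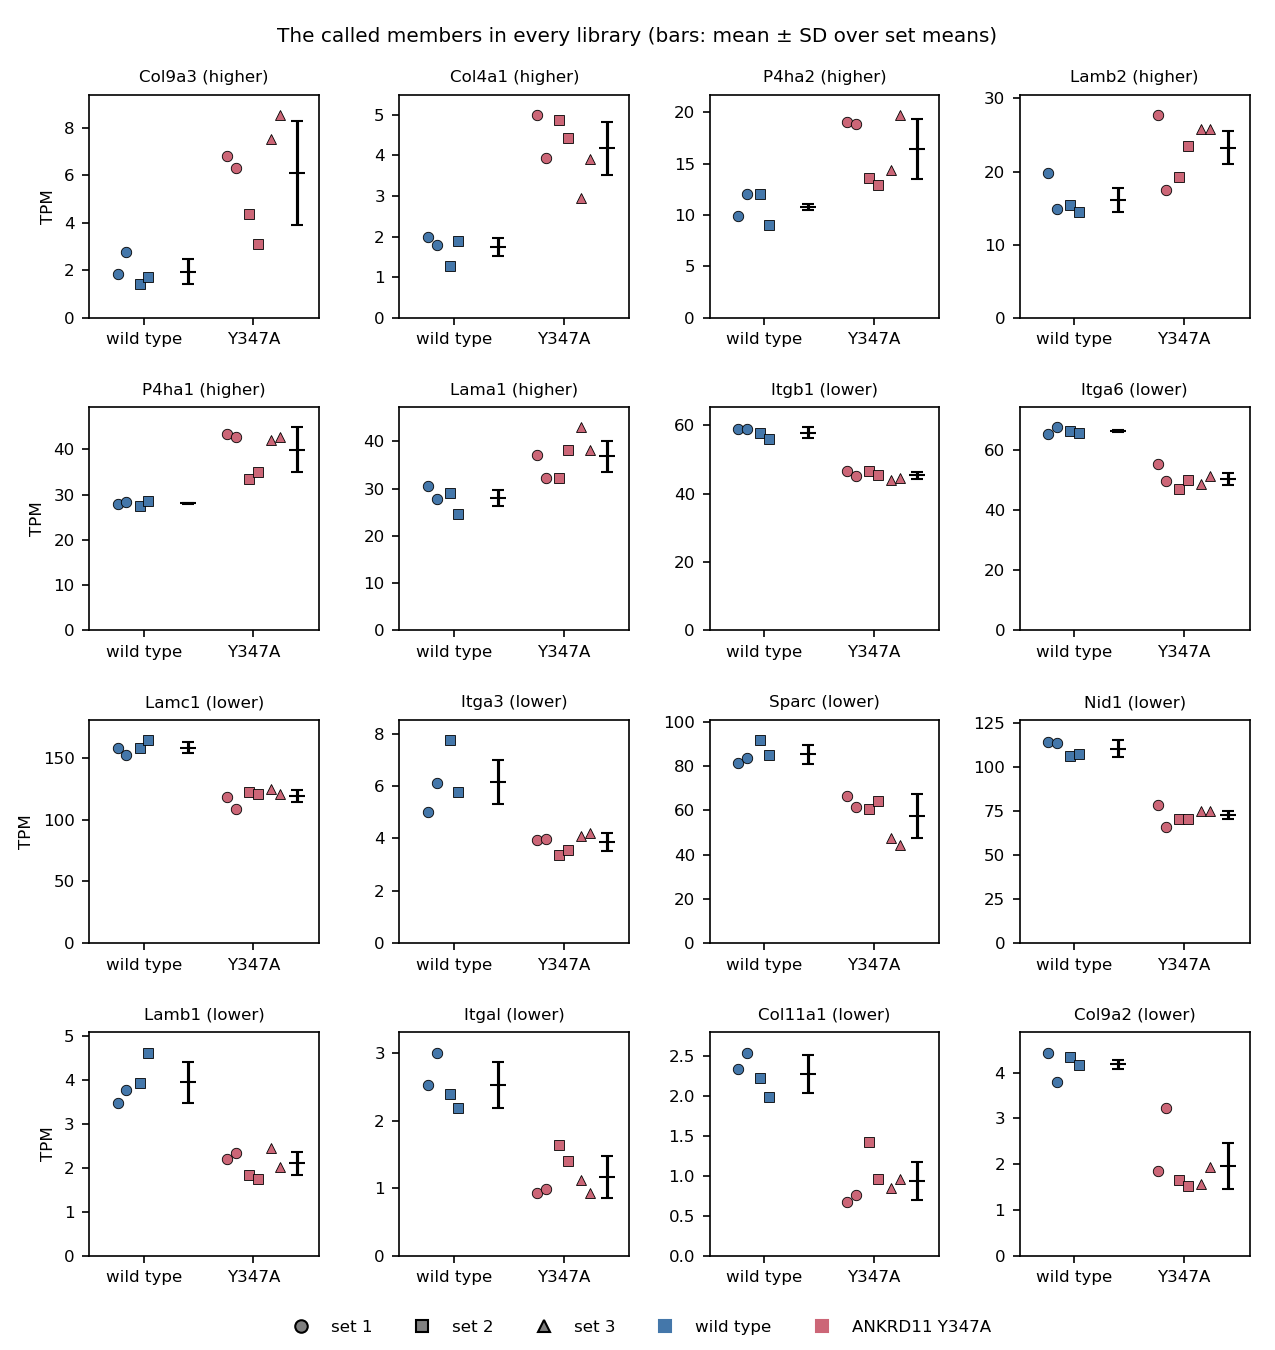
TPM in every library (points) and mean ± SD over set means (bars) for the 16 called genes, wild type against mutant, with a separate linear axis from 0 for each gene. The points of the genotypes do not overlap except for Lamb2, whose highest wild-type library (19.79 TPM) lies above the lowest mutant library (17.54 TPM).

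Because some related genes had fold changes of opposite sign, 9 ratios within a library were formed after the values had been seen. Some pairs are binding partners, others are paralogues or alternative chains. Over 2 wild-type and 3 mutant sets an exact permutation test cannot give a two-sided p below 0.1, so the ratios are described by their values. Lamb2 over Lamb1 was 3.12 to 5.69 in wild-type and 7.5 to 13.4 in mutant libraries, a 2.69-fold higher mean without overlap. Lama1 over Lamc1 was 0.150 to 0.193 in wild-type and 0.263 to 0.343 in mutant libraries, again without overlap. Nid2 over Nid1 was 1.24 to 1.44 in wild-type and 2.11 to 2.5 in mutant libraries, so every mutant library was higher. Fibronectin over its receptor subunit Itga5 was 22.8 to 32.3 in wild-type and 36.9 to 46.0 in mutant libraries. Lama1 and Fn1 were higher, and Lamc1 and Itga5 lower, in every mutant library. The ratios of these pairs therefore could not overlap, and their separation is no further result. Itga6 over Itgav was lower, at 3.86 to 4.89 in wild-type and 2.74 to 3.36 in mutant libraries. P4ha1 over Serpinh1, whose fold changes had opposite signs, overlapped. So did the ratios of genes whose fold changes had the same sign, among them Lama5 over Lama1. Col4a1 over Col4a2 was 1.62 to 2.69 in wild-type and 2.06 to 2.76 in mutant libraries. Itga6 over Itgb1 was 1.11 to 1.17 and 1.01 to 1.19.

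**Figure D3:**
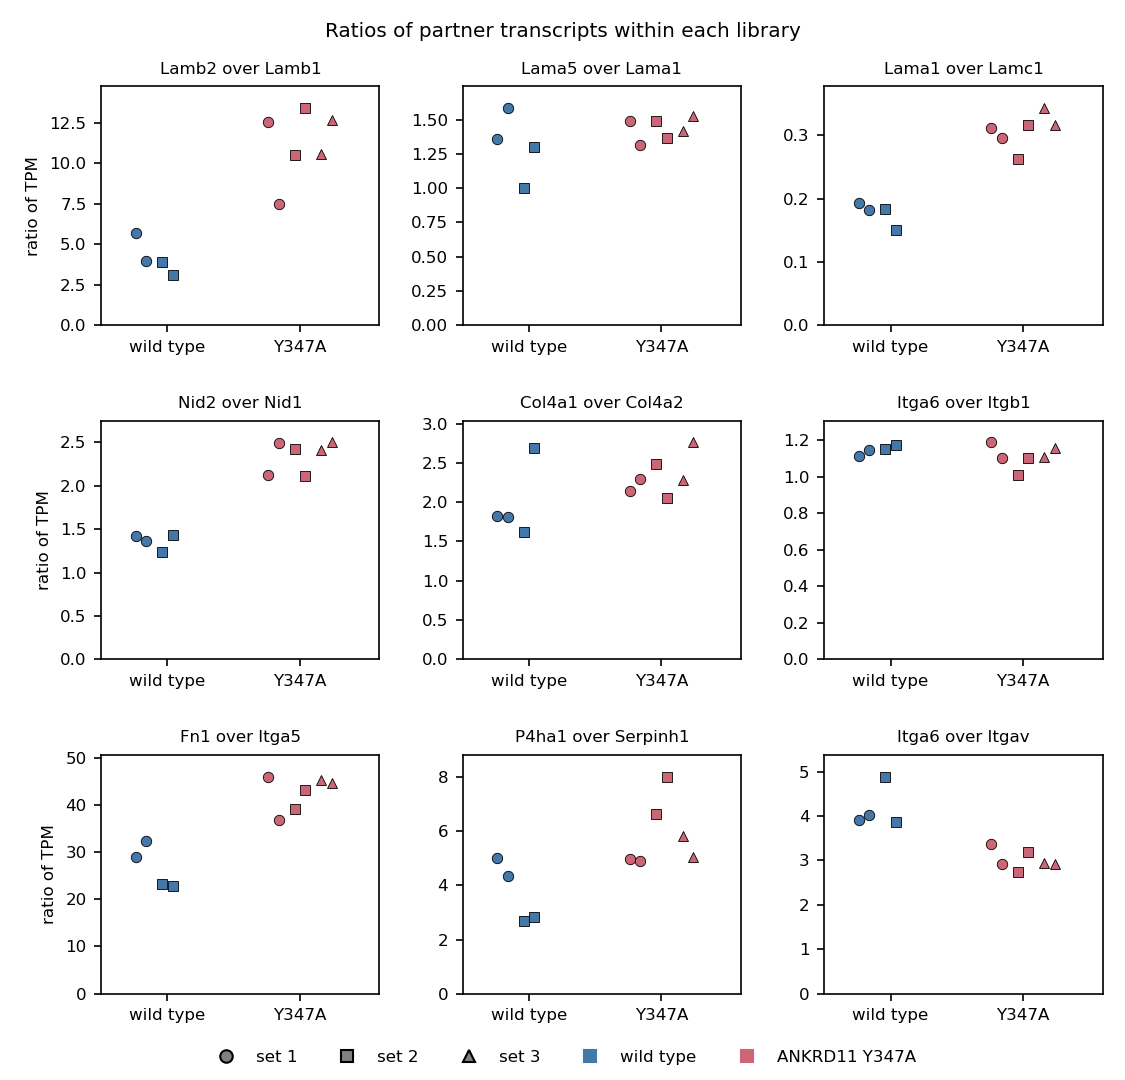
Ratios of TPM within a library for pairs of related genes, 4 wild-type and 6 mutant libraries as points, on axes from 0. The ratios of Lamb2 over Lamb1, Lama1 over Lamc1, Nid2 over Nid1 and Fn1 over Itga5 lie higher in every mutant library and Itga6 over Itgav lower.

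Mutant sets differed among themselves for some of these genes. A limma F test over the libraries called 8 of the 37 genes among the 3 mutant sets (21.6%), where 19.6% of all tested genes were called. The 2 shares are near each other, and so this is no result about the members as a list. In the tests between sets of a genotype, the spread came from the 2 libraries within a set, which may be technical repeats. Sparc was at 64.0 and 62.5 TPM in mutant sets 1 and 2 and at 45.9 TPM in set 3 (limma adjusted p = 0.0041). P4ha1 was at 43.1 and 42.4 TPM in mutant sets 1 and 3 and at 34.3 TPM in set 2 (limma adjusted p = 0.0060), and Col9a3 at 6.56, 3.74 and 8.04 TPM in sets 1, 2 and 3 (limma adjusted p = 0.0218). In all 3 genes each mutant set lay on the same side of both wild-type sets. Serpinh1 was at 8.73, 4.70 and 7.84 TPM (limma adjusted p = 0.0060), while the wild-type sets were at 6.06 and 10.2 TPM, so that the genotypes overlapped. Col26a1, Col18a1 and Hspg2 also differed, with limma adjusted p of 0.0141, 0.0341 and 0.0447. Between the wild-type sets 1 of 37 genes was called (2.70%), where 2.75% of all tested genes were: Serpinh1, higher in set 2 by 0.67 on the log2 scale (limma adjusted p = 0.0225).

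**Figure D4:**
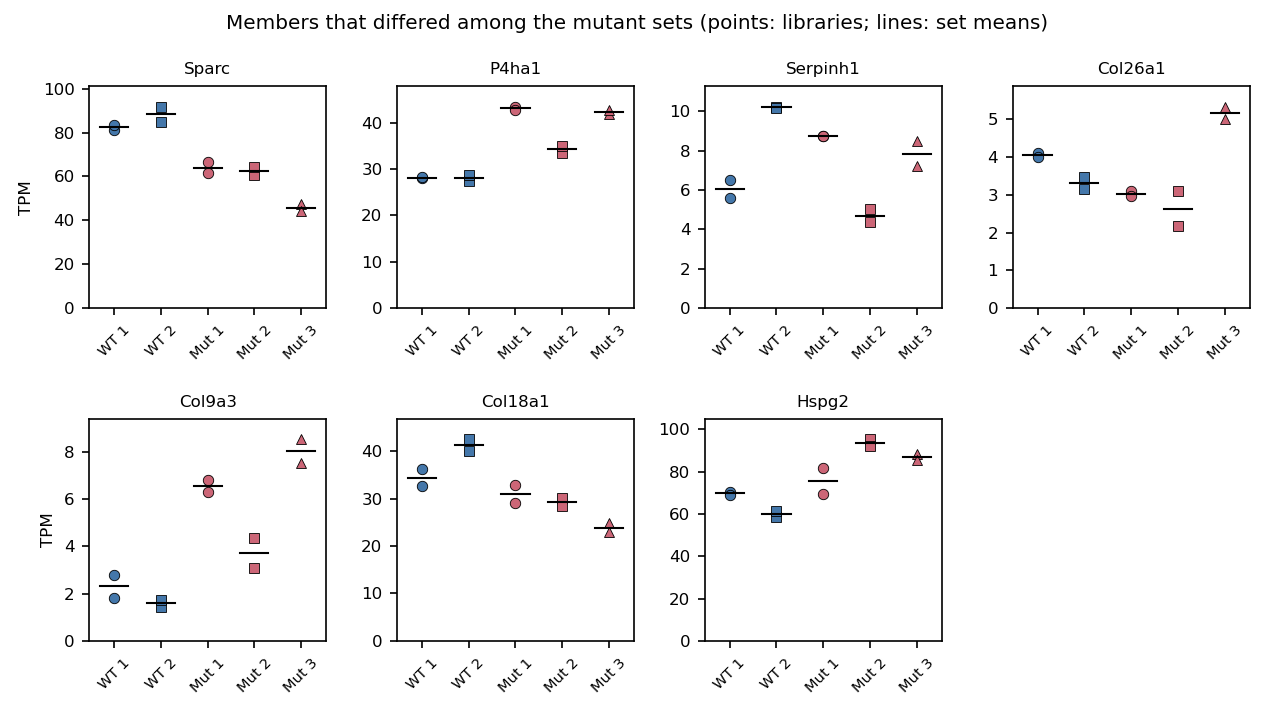
Mean TPM of each set, wild type 1 and 2 and mutant 1, 2 and 3, for 7 of the 8 genes that differed among mutant sets, with the libraries as points and axes from 0. Mutant set 3 is lowest for Sparc (45.9 TPM) and mutant set 2 for P4ha1 (34.3 TPM) and Col9a3 (3.74 TPM).

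Genes that act on or beside these members changed in both directions. Of 20 tested genes of collagen processing and export, 4 rose and 3 fell, which is 35% called against 17.5% of all tested genes (6.97% higher and 10.5% lower). Kdelr3, a receptor that returns proteins to the endoplasmic reticulum, rose from 19.2 to 47.0 TPM (1.24, limma adjusted p = 0.0023). Loxl2, a collagen crosslinking oxidase, rose from 4.45 to 8.34 TPM (0.78, limma adjusted p = 0.034). Plod2, a collagen lysyl hydroxylase, rose from 30.0 to 42.3 TPM (0.48, limma adjusted p = 0.0145). P4hb, the beta subunit that completes the prolyl 4-hydroxylase with P4ha1 or P4ha2, fell from 235 to 190 TPM (-0.30, limma adjusted p = 0.021). Mia3, which loads collagen for export, fell from 50.5 to 35.4 TPM (-0.50, limma adjusted p = 0.029). Pcolce2, an enhancer of procollagen cleavage, fell from 6.65 to 1.40 TPM (-1.72, limma adjusted p = 0.017). Colgalt1, which glycosylates collagen, rose from 57.7 to 70.2 TPM (0.28, limma adjusted p = 0.044). The catalytic alpha subunits and the shared beta subunit of the hydroxylase thus had changes of opposite sign.

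Inside the cell, 24 adaptors of integrin adhesion were tested, of which 2 rose and 1 fell. This is 12.5% called, below the 17.5% of all tested genes, and so no result about the adaptors as a list. Parvb, a parvin that ties integrin-linked kinase to actin, rose from 13.4 to 22.4 TPM (0.70, limma adjusted p = 0.0074) and Bcar1, the scaffold p130Cas, from 9.66 to 13.4 TPM (0.43, limma adjusted p = 0.0355). Lims1, the PINCH protein of the same kinase complex, fell from 32.9 to 24.4 TPM (-0.42, limma adjusted p = 0.0215). Of 9 tested matrix receptors that are not integrins, 2 rose and 1 fell (33.3% called). The syndecans Sdc4 (20.3 to 38.5 TPM, limma adjusted p = 0.0105) and Sdc3 (1.21 to 2.74 TPM, limma adjusted p = 0.029) rose. Dystroglycan, Dag1, a laminin receptor, fell from 63.5 to 52.6 TPM (limma adjusted p = 0.043). Another 3 receptors did not pass the filter and were looked at after their values were seen. The syndecan Sdc2 was at 0.74 to 1.34 TPM in wild-type and 0.07 to 0.24 TPM in mutant libraries. Ddr2 was at 2.06 to 2.34 and 0.03 to 0.30 TPM, so both were lower in every mutant library. The genotypes overlapped for Cd44. Of 8 tested further basement membrane and matricellular genes 2 rose and 3 fell (62.5% called). Tinagl1 (4.65 to 12.9 TPM, limma adjusted p = 0.018) and Fbln1 (19.6 to 29.8 TPM, limma adjusted p = 0.010) rose. Smoc1 (7.96 to 0.492 TPM), Ccn1 (9.53 to 4.85 TPM, limma adjusted p = 0.0070) and Ccn2 (6.30 to 3.02 TPM, limma adjusted p = 0.0093) fell. Of 14 tested matrix proteases and inhibitors 0 rose and 2 fell (14.3% called, again near the share of all tested genes), the proteoglycan-cleaving Adamts9 (10.5 to 5.83 TPM, limma adjusted p = 0.016) and the sheddase Adam17 (19.0 to 14.6 TPM, limma adjusted p = 0.040).

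GC content of transcripts moved with the calls over all genes. The median GC content was 52.9% for all genes called higher and 46.7% for those called lower, against 49.7% for all tested genes, and for the members 55.7% and 52.5%, with 58.0% for those not called. A correction for GC content per library kept 13 of the 16 calls and ended those of Sparc, Itgb1 and Lamb2. Sparc then had a log2 fold change of -0.59 against -0.58 without the correction (adjusted p = 0.0504), Lamb2 one of 0.41 against 0.50 (adjusted p = 0.0531) and Itgb1 one of -0.25 against -0.34 (adjusted p = 0.0674). The median log2 fold change of tested members was -0.097 after the correction and that of all genes -0.0050. The part of GC content in these results was not tested beyond that.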

How the data were processed

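The authors deposited TPM values for every gene in each library. Trim Galore, STAR, RSEM, DESeq2 and the build mm10 are named in the submitters' processing notes. Software versions, the strand setting and the annotation were not given in the sources used here. Since TPM add up to a fixed total, the values are relative, and depth is unknown. The members and all gene lists were chosen with earlier results of these data known. Named genes were every tested member, with each library's value where called, the highest untested member of each family, and untested members reaching 1 TPM in a library. Every called gene of the pathway lists was named as well, and a few untested genes of the lists after their values were seen.

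For each of the 12797 genes at 1 TPM or more on average, log2(TPM + 1) was averaged within a set, and the mutant sets (3) were tested against the wild-type sets (2) with limma 3.58.1 in R 4.3.3. The eBayes step used a trend and had 3 residual and 4.01 prior degrees of freedom; p are two-sided with Benjamini-Hochberg adjustment. Sets were compared within a genotype over libraries. The fit was tested on simulated data with changes put only into genes of higher level, which leaves members of low level untried. Positions come from GENCODE M21, matched on Ensembl IDs (55141 of 55401 genes, and all 91 members). The values of 1 tested member are not reported here, though it is kept in the counts. RefSeq windows were found for 66 of 91 members. Alternatives changed the pseudocount, filter, scaling, block, moderation and fold threshold and left out sets and libraries, while a per-library lowess fit on GC content (span 0.3) was an alternative chosen after seeing the data. Plots used matplotlib 3.10.9.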

Additional observations from a re-analysis of the deposited data

Results flagged for a closer look

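In 2 of 74 groups of libraries examined, 1 library stood far from the others of its genotype, and chance gives about 1 such group in 20. Itgav was at 13.59 TPM in the first library of wild-type set 2, where the nearest other wild-type library was at 16.73 TPM, a gap of 0.921 of the group's range. Col9a2 was at 3.23 TPM in the second library of mutant set 1, where the nearest other mutant library was at 1.94 TPM, a gap of 0.75 of the range.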

How the results depend on the processing

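No called member reversed its direction in any of the 28 alternatives. Against 6 members called higher and 10 called lower, and 892 and 1350 of all genes, the counts of members were 0 and 4 with no filter (all genes 250 and 559) and 6 and 5 with a mean TPM of at least 5, where fewer members were tested. They were 2 and 10 with no mean-variance trend, where P4ha1, P4ha2, Lama1, Lamb2 and Sparc lost their calls (adjusted p 0.0509 to 0.0704), and 1 and 0 for a log2 fold change of at least 1 (all genes 106 and 193). With 10 libraries they were 8 and 14 with the set as a random block, which ended the call of Lamb2 (all genes called lower 2063). They were 11 and 14 with no block (2166 and 3103), a fit that takes the libraries of a set as independent. The median log2 fold change of tested members was 0.064 with a mean TPM of at least 5, 0.0041 under median-of-ratios rescaling and -0.097 with the GC correction.

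The deviations of same-numbered sets of the genotypes correlated at -0.164 (set 1) and -0.0904 (set 2) across genes. With 2 wild-type sets both values rest on the same wild-type difference. Whether same-numbered sets share more than a number cannot be told from them. With set and replicate number as a replicate block the counts of members were 10 and 15 (all genes 1919 and 3128), and with sets 1 and 2 only and the set number as a replicate block 2 and 1 (197 and 364). Leaving out a set or a library gave 0 to 7 members called higher and 0 to 10 called lower, with 10 to 1005 and 32 to 1388 of all genes and a median of -0.073 to 0.069. The counts among mutant sets and between wild-type sets were 5 and 0 with no filter, and that between wild-type sets was 2 under median-of-ratios and quantile scaling. The cause of these shifts was not tested.

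Members near 0 changed sign without being called: Itga2b at 0.0071 with a pseudocount of 0.1, 0.0041 under median-of-ratios rescaling and 0.035 in both replicate-block fits, and Itga7 at 0.0044 under median-of-ratios rescaling. On leaving out sets or libraries Itga2b ran from -0.29 to 0.26, Itga7 from -0.091 to 0.055, Itgav from -0.012 to 0.14, Col26a1 from -0.29 to 0.095 and Serpinh1 from -0.51 to 0.16. Of members that were not called, Lama5, Fn1 and Hspg2 passed the threshold under both rescalings, and Itga5, Col18a1 and Itgb5 with the GC correction. Depth is unknown, and members under the filter could not be tested.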
